A study of Mus musculus with 12 samples.

Results

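A set of 10 genes that encode transcription factors and splicing regulators of epithelial cells were followed across the resistant derivatives of a mouse breast cancer line. They were set by name, with earlier results of these data known, as were the gene lists below: the grainyhead-like factors Grhl1, Grhl2 and Grhl3, the zinc finger factors Ovol1 and Ovol2, the splicing regulators Esrp1 and Esrp2, the ETS factors Elf3 and Ehf, and the Krüppel-like factor Klf5. All 10 were found among the 55573 genes of each library, and all 10 were among the 14226 genes that passed the filter on low counts and were tested. The study compared 3 derivatives of the PB3 line, which lacks the oestrogen, progesterone and Her2 receptors according to the labels (Er-/Pr-/Her2-), with the untreated parental cells. ERI-R was selected with eribulin (spelled "Erubilin" in some labels), PAC-R with paclitaxel and VIN-R with vinorelbine, and the labels list 300, 500 and 800 nM for each drug without tying a concentration to a library. Control was PB3-Parental, which received no drug, and all 4 groups were grown in the same supplemented DMEM/F12 medium. Each group had 3 RNA sequencing libraries. The labels speak of resistant clones and give 1 line per drug, so a difference between lines cannot be told apart from a difference between clones. They do not say that replicates were separate cultures, so the p-values below speak to the spread among these libraries alone, which may be technical.

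Grainyhead-like factors bind the enhancers and promoters of junction genes and hold them active, and OVOL factors repress the genes of the mesenchymal programme, among them Zeb1. ESRP proteins bind RNA and direct the splicing of epithelial forms of transcripts such as those of Fgfr2, Cd44 and Enah. In carcinoma cells these regulators and the ZEB, SNAIL and TWIST factors are known to oppose each other across the epithelial-mesenchymal transition. Elf3 and Ehf are ETS factors restricted largely to epithelia, and Klf5 is a proliferation-linked factor of basal and crypt epithelium.

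Libraries held between 11141028 and 13454395 estimated read pairs, so that 3 counts correspond to 0.223 to 0.269 CPM (counts scaled to the total of a library). All other CPM below are also scaled by the TMM method. Floors and intervals below cover counting error only. The lines were checked against markers. The 8 epithelial markers, keratin, claudin and adhesion genes, summed to 1033 to 3285 CPM in ERI-R, against 1293 to 4861 CPM in the other 9 libraries, so the sum did not set ERI-R apart. By gene, 5 of the 8 were called higher in ERI-R than in Control and 0 lower (edgeR, adjusted p under 0.05), with a median log2 change of 4.71. Of all genes tested, 9.51% were called higher and 9.69% lower. Krt8, Krt18 and Cldn4 were not called, and Krt5 reached the level of the filter in ERI-R libraries only and had to differ. None of the 8 was at 0 in ERI-R, and up to 3 were elsewhere. The 5 mesenchymal markers summed to 700.0 to 1792 CPM in ERI-R, against 8733 to 12113 CPM elsewhere. By gene, 4 of these 5 were called lower in ERI-R than in Control and 0 higher, with a median log2 change of -3.96. Of single markers, the adhesion gene Epcam stood at 228 to 244 CPM in the ERI-R libraries, against 0.224 to 10.2 CPM in the other 9, while the mesenchymal filament gene Vim stood at 19.1 to 276 CPM in ERI-R, against 2253 to 4195 CPM elsewhere. Leukocyte transcripts divided the libraries across the groups. Ptprc, the pan-leukocyte surface gene, ranged over 59.1 to 384 CPM in 8 libraries and reached at most 0.0723 CPM in 4 others, ERI-R 3, PAC-R 3, VIN-R 3 and Control 1. The 20 leukocyte markers summed to 1017 to 6491 CPM in those 8 libraries with none at 0, and to 24.8 to 167 CPM in the 4, where 12 to 16 of them were at 0. In such bulk samples, fewer cells of a type and less RNA per cell cannot be told apart.

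Of the 10 genes, 9 were higher in ERI-R than in Control, and Klf5 was lower. At an adjusted p under 0.05 (edgeR's quasi-likelihood test, Benjamini-Hochberg over all genes tested), 9 genes were called higher, against 9.51% of all genes tested, and 1 was called lower, against 9.69% (19.2% in either direction). The ERI-R and Control libraries did not overlap for any of the 10, which held for 35.7% of all genes tested. Grhl1, Grhl3, Ovol1, Ovol2 and Elf3 reached the level of the filter, 0.838 CPM, in ERI-R libraries only. As these 5 entered the test through ERI-R, they had to differ, and the count is given as a description and not as support. Without Control 3 the count was 5, all higher (12.6% of genes were then called in either direction), and without Control 1 it was 7 (12.8%).

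**Figure D1:**
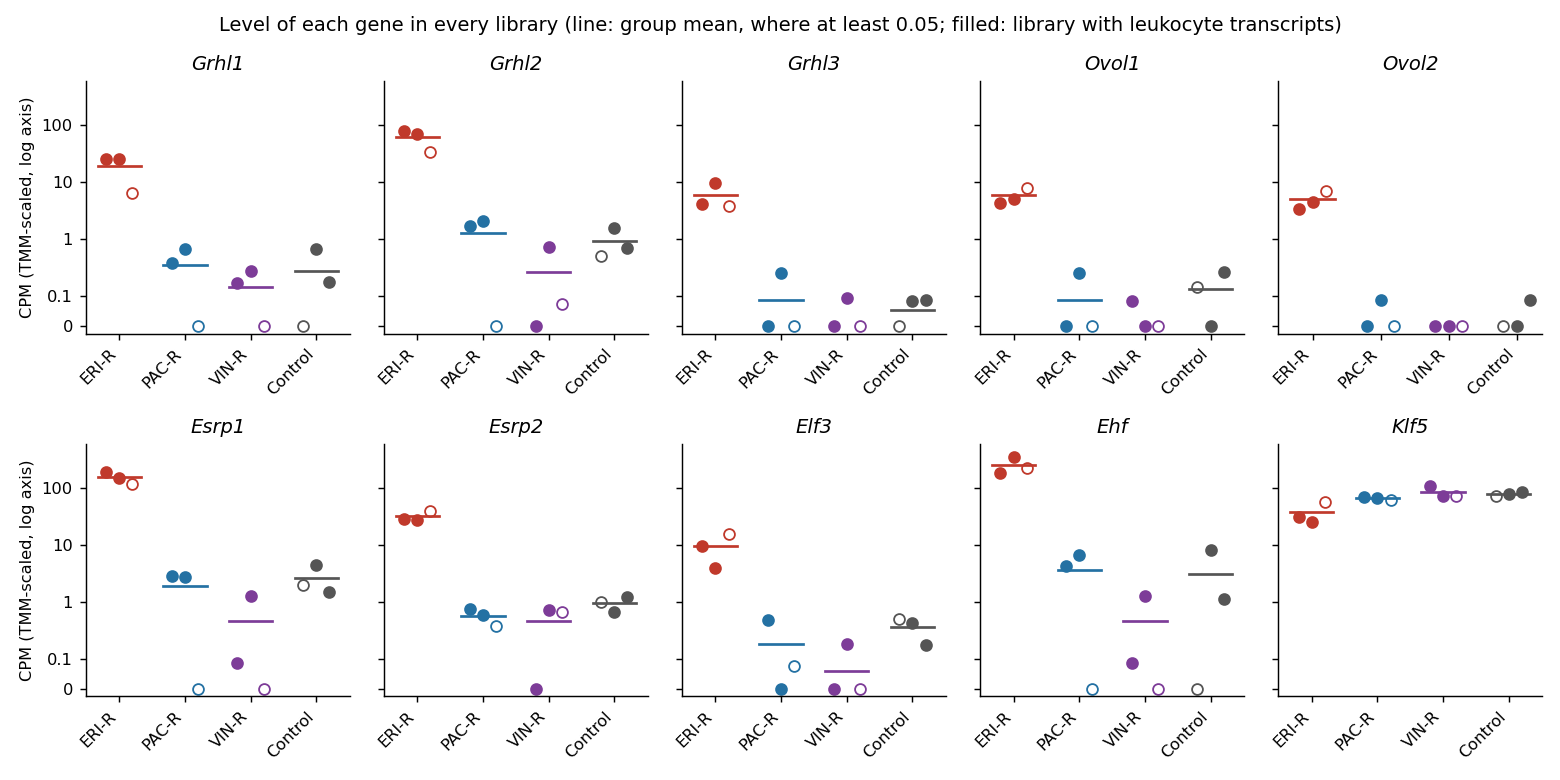
Level of each of the 10 genes in every library, as TMM-scaled CPM on a log axis, with ERI-R leftmost and Control rightmost. Each point is 1 library, filled where it holds leukocyte transcripts and open where it does not, lines are group means of at least 0.05 CPM, and libraries at 0 are drawn at the base; for 9 genes the 3 ERI-R points lie above all 9 other libraries, and for Klf5 they lie below them.

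The grainyhead-like genes were at trace levels outside ERI-R. Grhl2, on chromosome 15 (GRCm38, chr15:37233036-37363569), had 80.9, 70.0 and 33.8 CPM in ERI-R 1 to 3, against 0.506, 1.59 and 0.699 CPM in Control 1 to 3. PAC-R held 1.73, 2.11 and 0 CPM and VIN-R 0, 0.731 and 0.0738 CPM of this transcript. The 3 ERI-R libraries lay far above the other 9, and Grhl2 changed by 6.03 on the log2 scale in ERI-R over Control (SE 1.3, adjusted p = 0.0082 by edgeR). Grhl2 is the member of the family best known as an activator of Cdh1 and of claudin genes. Grhl1, known for its part in desmosomes of the epidermis (chr12:24572283-24617391), had 25.4, 25.5 and 6.42 CPM in ERI-R, against 0, 0.671 and 0.175 CPM in Control, a log2 change of 6.06 (SE 1.36, adjusted p = 0.0097, and 5.81 with adjusted p = 0.0527 without Control 3). PAC-R held 0.384, 0.674 and 0 CPM of Grhl1 and VIN-R 0.167, 0.274 and 0 CPM, both overlapping with Control. Grhl3, which is required for skin barrier formation and neural tube closure (chr4:135541888-135573630), was the scarcest of the family per transcript length. It had 4.11, 9.61 and 3.89 CPM in ERI-R, against 0, 0.0839 and 0.0874 CPM in Control. Control held 2 Grhl3 counts in all and ERI-R 217, a ratio of CPM of 113 (95% counting interval 30.9 to 939, adjusted p = 0.0035). Grhl3 reached at most 0.253 CPM in PAC-R and 0.0914 CPM in VIN-R. For both genes every ERI-R library was above every Control library. Per transcript length, in the TPM of the deposited tables, Grhl2 made up 67.8%, 57.4% and 74.1% of the family's summed level in ERI-R 1 to 3, Grhl1 27.0%, 29.6% and 15.4%, and Grhl3 5.25%, 13.01% and 10.5%, so the order of Grhl2, Grhl1 and Grhl3 was the same in each library.

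Both OVOL genes were low in ERI-R and close to absent elsewhere. Ovol1 (chr19:5549136-5560646), a repressor known from epidermal and germ cell differentiation, had 4.42, 5.19 and 8.10 CPM in ERI-R, against 0.145, 0 and 0.262 CPM in Control. Its log2 change was 5.35 (SE 1.11, adjusted p = 0.0066), and its highest library was at 0.253 CPM in PAC-R and 0.0837 CPM in VIN-R. Ovol2 (chr2:144305175-144332146), which represses Zeb1 in epithelial cells, had 3.43, 4.42 and 7.15 CPM in ERI-R, against 0, 0 and 0.0874 CPM in Control. A single Ovol2 count was found over the 3 Control libraries and 171 over ERI-R, a ratio of CPM of 178 (95% counting interval 31.5 to 7072, adjusted p = 0.0022). PAC-R held 1 Ovol2 count, in PAC-R 2, and VIN-R none. ERI-R and Control did not overlap for either gene. In CPM ERI-R 3 was the highest library for both, but in TPM it was the lowest of the 3, at 3.12, 3.23 and 2.32 for Ovol1 and 4.98, 5.69 and 4.21 for Ovol2 in ERI-R 1 to 3. Per length, Ovol2 made up 61.5%, 63.8% and 64.5% of the summed TPM of the pair in ERI-R 1 to 3.

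Promoter windows from RefSeq (GRCm38.p6, 250 bases before to 50 bases after a transcript start) were matched for Elf3, Ovol2, Grhl3 and Grhl1, 4 of the 10 genes. They are shown because ZEB and SNAIL repressors are known to bind E-boxes of the form CACCTG, or CAGGTG on the other strand. All 4 genes reached the level of the filter in ERI-R libraries only, so their joint rise is a description and not support. Each reads 5′ to 3′ on the strand of the gene, and capitals mark the E-box.
Elf3 (chr1:135258423-135258722, minus strand): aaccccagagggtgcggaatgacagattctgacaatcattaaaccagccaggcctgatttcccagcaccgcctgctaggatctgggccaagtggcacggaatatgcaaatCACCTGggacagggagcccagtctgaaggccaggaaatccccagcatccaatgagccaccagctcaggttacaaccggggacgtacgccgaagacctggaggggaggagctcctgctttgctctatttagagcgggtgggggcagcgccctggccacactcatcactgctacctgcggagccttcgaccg
Ovol2 (chr2:144331313-144331612, minus strand): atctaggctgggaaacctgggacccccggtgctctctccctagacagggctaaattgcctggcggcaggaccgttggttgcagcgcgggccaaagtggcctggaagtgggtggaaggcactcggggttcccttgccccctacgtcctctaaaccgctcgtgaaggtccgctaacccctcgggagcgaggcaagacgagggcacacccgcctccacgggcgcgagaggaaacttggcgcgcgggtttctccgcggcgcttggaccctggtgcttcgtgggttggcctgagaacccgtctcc
Grhl3 (chr4:135573583-135573882, minus strand): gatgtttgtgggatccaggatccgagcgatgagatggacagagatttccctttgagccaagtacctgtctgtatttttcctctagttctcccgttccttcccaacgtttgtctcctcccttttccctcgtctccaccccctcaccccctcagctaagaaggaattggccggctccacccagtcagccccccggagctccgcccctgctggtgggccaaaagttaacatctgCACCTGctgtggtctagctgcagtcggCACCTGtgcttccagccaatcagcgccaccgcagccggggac
Grhl1 (chr12:24572037-24572336, plus strand): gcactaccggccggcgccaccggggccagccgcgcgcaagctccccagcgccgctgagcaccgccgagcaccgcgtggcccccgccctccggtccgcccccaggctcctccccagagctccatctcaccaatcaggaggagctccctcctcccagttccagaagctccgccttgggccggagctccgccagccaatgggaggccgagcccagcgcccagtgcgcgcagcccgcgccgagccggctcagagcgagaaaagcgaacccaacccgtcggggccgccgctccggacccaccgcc
Elf3 held 1 E-box, at -140 from the start site, and Grhl3 held 2, at -19 and 8. An E-box of this form occurred in 20.2% of the 32851 promoter windows of the same length. No E-box of this form was found in the Ovol2 and Grhl1 windows shown. A match describes the sequence and is no evidence of binding. The Ovol2 window belongs to a start 784 bases from the gene's start in GENCODE M21. Ovol2 and Grhl1 held 25 and 35 CpG dinucleotides and Elf3 and Grhl3 held 12 each, where the median window held 7. RefSeq gives Grhl1 a second window (chr12:24580469-24580768), at a start 8436 bases from the gene's start in GENCODE M21, which held 0 CpG dinucleotides and none of these motifs and is not printed. The window of Grhl1 held a GC box (CCCGCCC or GGGCGGG) at -170, a motif found in 25.6% of windows, and none of the 4 held the grainyhead motif AACCGGTT, found in 0.146%.

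The splicing regulators were, per transcript length, among the more abundant of the 10 genes in ERI-R. Esrp1 (chr4:11331933-11386783) had 194, 148 and 119 CPM in ERI-R, against 1.95, 4.44 and 1.49 CPM in Control. PAC-R had 2.88, 2.78 and 0 CPM and VIN-R 0.0837, 1.28 and 0 CPM. The lowest ERI-R library stood above the highest of the other 9, and the log2 change over Control was 5.86 (SE 1.39, adjusted p = 0.0127). Esrp2, its paralog, which acts on an overlapping set of exons (chr8:106130319-106136974), had 28.6, 27.6 and 38.9 CPM in ERI-R, against 1.01, 0.671 and 1.22 CPM in Control. It was the gene with the lowest SE among the 9 higher ones (log2 change 5.02, SE 0.80, adjusted p = 0.0018), with a coefficient of variation of 19.7% in ERI-R. PAC-R had 0.767, 0.590 and 0.374 CPM of Esrp2 and VIN-R 0, 0.731 and 0.664 CPM. ERI-R did not overlap with any of the other groups. Esrp1 made up 82.2%, 80.4% and 74.5% of the summed TPM of the pair in ERI-R 1 to 3. The Esrp1 call did not hold without Control 1 (log2 change 5.79, adjusted p = 0.0549) or without Control 3 (5.57, adjusted p = 0.0654).

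The ETS factors included the gene with the highest TPM in ERI-R, Ehf, and the gene with the largest coefficient of variation of CPM among the 3 ERI-R libraries, Elf3 (60.4%). Ehf (chr2:103263433-103303278), an epithelium-specific ETS factor, had 182, 349 and 228 CPM in ERI-R, against 0, 8.30 and 1.14 CPM in Control. PAC-R had 4.22, 6.57 and 0 CPM and VIN-R 0.0837, 1.28 and 0 CPM. Control 2 alone held 99 of the 112 Ehf counts in Control. The log2 change was 6.33 (SE 1.93, adjusted p = 0.0438), although the lowest ERI-R library was far above the highest Control library. Among the 9 higher genes its call was lost in the most settings. The adjusted p was over 0.05 without Control 1 (log2 change 5.84) or Control 3 (5.92), with no filter on low counts (6.37), without ERI-R 1 (6.56), ERI-R 2 (6.09) or ERI-R 3 (6.54), and without PAC-R 1 (6.31), PAC-R 2 (6.31) or VIN-R 1 (6.32). It lay between 0.0587 and 0.156 in those fits with 1 library fewer. Elf3 (chr1:135253575-135258568), a factor of epithelial differentiation that also responds to inflammatory signals, had 9.45, 3.97 and 15.7 CPM in ERI-R, against 0.506, 0.419 and 0.175 CPM in Control. In CPM ERI-R 3 was its highest library, while in TPM ERI-R 1 was, and ERI-R 2 was the lowest of the line on both scales. The groups did not overlap (log2 change 4.67, SE 1.08, adjusted p = 0.0113, and 4.34 with adjusted p = 0.0594 without Control 3). Elf3 had 0.479, 0 and 0.0747 CPM in PAC-R and 0, 0.183 and 0 CPM in VIN-R.

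Klf5 (chr14:99298691-99315036) differed from the other 9 genes in that it was well detected in every library. It had 30.7, 25.0 and 56.3 CPM in ERI-R, 69.4, 68.2 and 62.0 CPM in PAC-R, 110.5, 71.6 and 72.0 CPM in VIN-R, and 71.3, 77.6 and 84.4 CPM in Control. All ERI-R libraries lay below all others, with ERI-R 3 the nearest to them in CPM. Klf5 averaged 37.3 ± 16.7 CPM in ERI-R, against a mean of 77.8 ± 6.60 CPM in Control (SD, n = 3 libraries each), a log2 change of -1.06 (SE 0.32, adjusted p = 0.0424 by edgeR). Over the alternatives tried the change lay between -1.45 and -0.80 and its adjusted p between 0.00545 and 0.150. It was no longer called without Control 1 (-1.06), Control 2 (-1.08), Control 3 (-1.01), ERI-R 1 (-0.92), ERI-R 2 (-0.80), PAC-R 1 (-1.08) or PAC-R 2 (-1.08), or with DESeq2 size factors (-0.98, adjusted p = 0.0620), with no filter (-1.10, adjusted p = 0.0679), with the replicate number as a block (-1.10, adjusted p = 0.0510) or with the ERI-R and Control libraries alone (-1.06, adjusted p = 0.150).

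ERI-R was also set against each of the other derivatives. Over PAC-R, 9 genes were called higher (9.19% of all genes tested) and 0 lower (9.55%, or 18.7% in either direction), with log2 changes of the 9 from 5.59 to 7.03. Over VIN-R, 9 were called higher (9.55%) and 1 lower (9.74%, or 19.3% in either direction), with changes from 6.06 to 9.14. All 10 genes were without overlap in both comparisons, as were 29.3% of all genes tested in ERI-R over PAC-R and 30.4% in ERI-R over VIN-R. These comparisons share the ERI-R libraries with the comparison against Control and are no independent repeats of it. Grhl1, Grhl3, Ovol1, Ovol2 and Elf3 entered these tests through ERI-R as well. They had to differ here too, and the counts are a description and not support. Klf5 was -0.83 over PAC-R (adjusted p = 0.106) and -1.18 over VIN-R (adjusted p = 0.0258). The second call was lost without ERI-R 1 (-1.06), ERI-R 2 (-0.95) or VIN-R 1 (-0.96), and with the ERI-R and VIN-R libraries alone (-1.18, adjusted p = 0.175), while over PAC-R Klf5 was called without ERI-R 3 (-1.11, adjusted p = 0.0128) and in the 8 libraries with leukocyte transcripts (-1.20, adjusted p = 0.0178). Ehf changed by 6.14 over PAC-R (adjusted p = 0.0484) and 9.14 over VIN-R, Esrp1 by 8.42 and Grhl2 by 7.84 over VIN-R. Where a line held 1 to 3 counts the ratio of CPM is given with its 95% counting interval. Over PAC-R it was 72.2 (24.4 to 353) for Grhl3, 67.6 (22.8 to 330) for Ovol1 and 171 (30.2 to 6782) for Ovol2. Over VIN-R it was 221 (39.3 to 8779) for Grhl3, 207 (36.7 to 8215) for Ovol1 and 166 (45.5 to 1374) for Elf3. VIN-R held 0 Ovol2 counts, so Ovol2 was at least 58.1-fold higher in ERI-R, taking 3 counts over the VIN-R group as the floor.

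Several of these folds moved by more than 1.5 times when 1 library was left out. In ERI-R over Control, leaving out Control 2 gave log2 changes of 8.80 for Ehf, 7.69 for Grhl1, 6.64 for Grhl2 and 6.46 for Esrp1, and leaving out Control 3 gave 6.09 for Ovol1 and 8.91 for Ovol2. In ERI-R over PAC-R, leaving out PAC-R 2 gave 6.90 for Ehf, 6.64 for Grhl1, 5.11 for Elf3, 9.15 for Grhl3 and Ovol1 and 8.91 for Ovol2. Leaving out PAC-R 3 gave 5.54 for Ehf, 5.74 for Esrp1, 5.13 for Grhl1, 4.99 for Grhl2 and 5.37 for Grhl3 and Ovol1, and leaving out PAC-R 1 gave 7.60 for Elf3. The direction was the same in each of these fits. The Ehf call over PAC-R was lost without Control 3 (6.12), ERI-R 1 (6.35), ERI-R 2 (5.87), ERI-R 3 (6.36), VIN-R 1 (6.12), PAC-R 1 (6.26), PAC-R 2 or PAC-R 3, with no filter (6.15, adjusted p = 0.134) and with the ERI-R and PAC-R libraries alone (6.22, adjusted p = 0.0533), and the Grhl1 call without PAC-R 1 (5.80, adjusted p = 0.0534). In ERI-R over VIN-R, leaving out VIN-R 2 gave 12.30 for Ehf, 11.57 for Esrp1, 10.28 for Grhl2, 9.87 for Elf3, 9.16 for Grhl3 and 7.72 for Grhl1. Leaving out VIN-R 3 gave 8.52 for Ehf, 7.80 for Esrp1 and 6.37 for Grhl1, and leaving out VIN-R 1 gave 9.15 for Ovol1, 7.26 for Grhl2, 5.47 for Esrp2 and 8.64 for Ehf, whose call was then lost, as it was with no filter (9.12, adjusted p = 0.0516). Where a group held 0 to 3 counts, fitted values depend on the prior count of the fit and are no bounds.

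**Figure D2:**
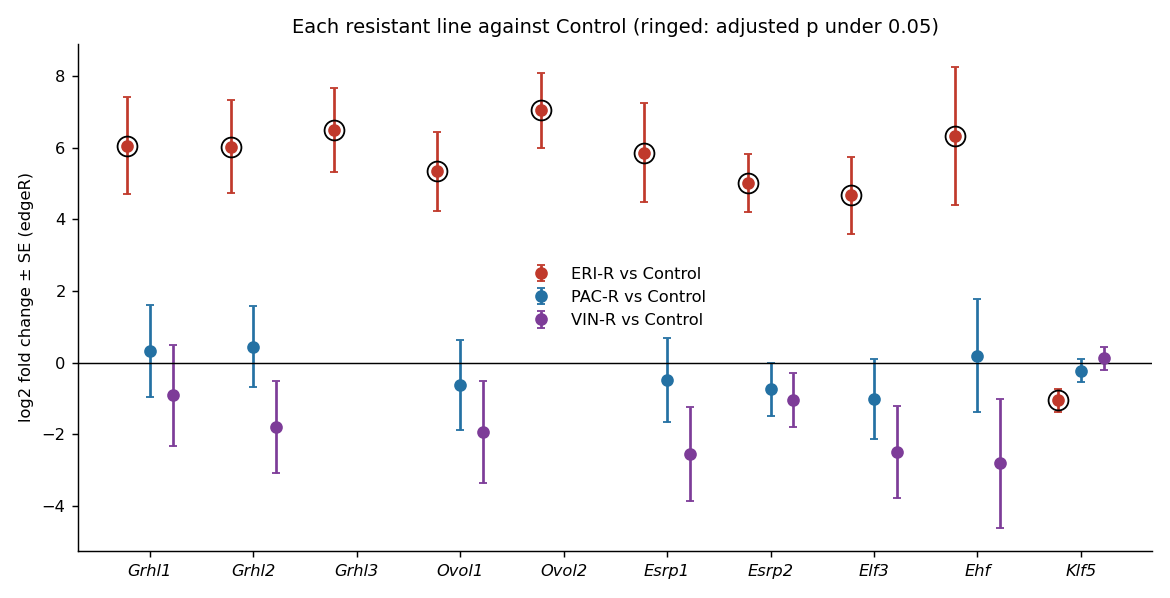
Log2 fold change over Control of each gene in ERI-R (red), PAC-R (blue) and VIN-R (purple), with bars of 1 SE from the edgeR fit and rings around changes with an adjusted p under 0.05. The ERI-R points lie between 4.67 and 7.06 for 9 genes and at -1.06 for Klf5, all ringed, while no PAC-R or VIN-R point is ringed; Grhl3 and Ovol2 have no such point because both groups held at most 3 counts.

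No difference of PAC-R or VIN-R from Control passed the test for any of the 10 genes. In PAC-R over Control 0 of 10 were called, against 0% of all genes tested, with unadjusted p from 0.338 to 0.981 for the 10. In VIN-R over Control 0 of 10 were called, also against 0%, with unadjusted p from 0.0772 to 0.707. Over all genes, 245 (1.72%) and 381 (2.68%) had an unadjusted p under 0.05 in PAC-R and in VIN-R over Control, and DESeq2 called 23 and 36 genes, none of them among the 10. PAC-R over VIN-R likewise gave 0 calls among the 10 and 0% over all genes, with 156 genes (1.1%) at an unadjusted p under 0.05 and 3 by DESeq2. In the edgeR fit, Elf3 had the lowest unadjusted p of the 10 in VIN-R over Control, at a log2 change of -2.51. Esrp1 was the gene whose VIN-R libraries all lay below Control (log2 change -2.56, SE 1.32, unadjusted p = 0.079), a separation shown by 8.55% of all genes tested in that comparison. Klf5 averaged 66.5 ± 3.97 CPM in PAC-R, against 77.8 ± 6.60 CPM in Control without overlap (log2 change -0.22, adjusted p = 1), where 7.58% of genes did not overlap. It was also the gene without overlap in PAC-R over VIN-R (log2 change -0.35), as were 3.2% of all genes tested. A p that misses the threshold does not show that the lines were alike, and for most of the 9 genes the counts in these lines were too few to resolve small changes. By group mean, VIN-R was lowest in CPM for each of the 9 genes other than Klf5, but these neighbours in the order did not differ by the test.

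**Figure D3:**
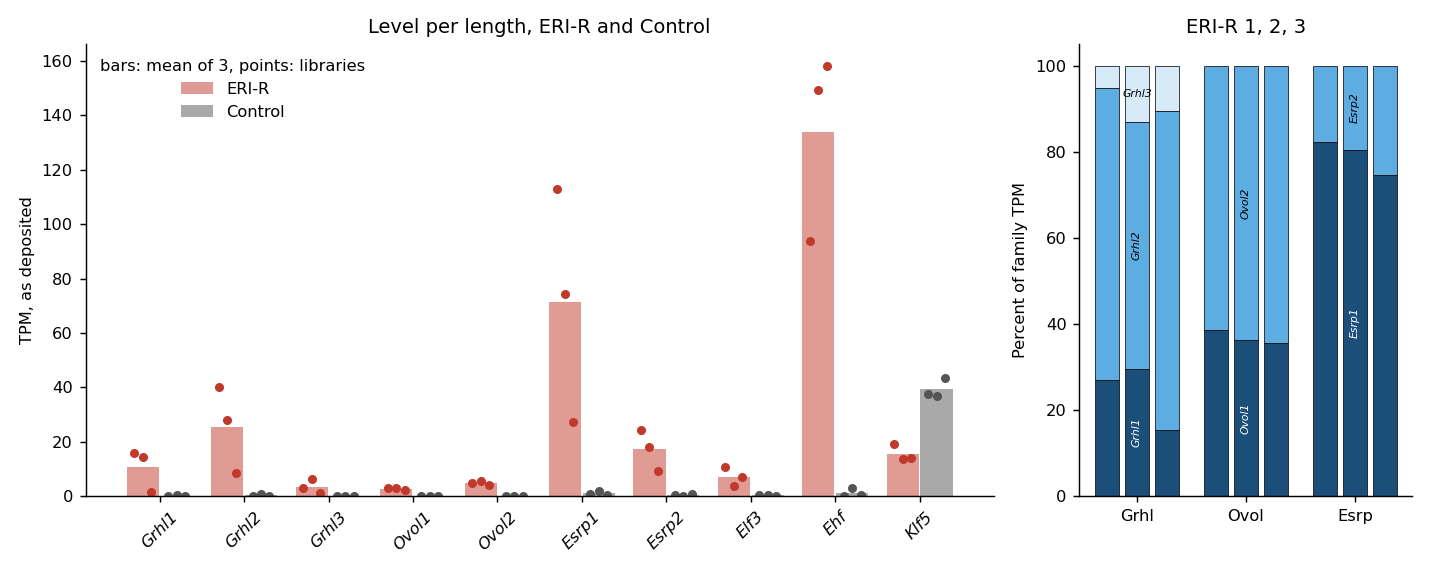
Left, TPM of the 10 genes in ERI-R (red) and Control (grey) on a linear axis, with bars for the mean of 3 libraries and a point per library. Right, percent of the summed TPM of each family held by each of its genes in ERI-R 1, 2 and 3; Ehf has the tallest ERI-R bar at 134 TPM, Klf5 the tallest Control bar at 39.3 TPM, and Grhl2, Ovol2 and Esrp1 take the largest share of their families.

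Per length, the order of the 10 genes was unlike in ERI-R and Control. In ERI-R, Ehf averaged 134 ± 35.0 TPM, Esrp1 71.5 ± 42.8, Grhl2 25.6 ± 16.0, Esrp2 17.3 ± 7.56 and Klf5 15.7 ± 2.97 TPM (SD, n = 3). Below them stood Grhl1 at 10.8 ± 7.82, Elf3 at 7.25 ± 3.40, Ovol2 at 4.96 ± 0.740, Grhl3 at 3.56 ± 2.64 and Ovol1 at 2.89 ± 0.497 TPM. Each neighbouring pair in this order overlapped between libraries. In Control, Klf5 led at 39.3 ± 3.51 TPM, and Ehf came next at 1.20 TPM. By mean TPM over all genes, Ehf ranked 1074 in ERI-R and 12835 in Control, and Klf5 7220 in ERI-R and 3916 in Control. The summed TPM of the 9 genes other than Klf5 lay between 220 and 309 in the ERI-R libraries, against 0.18 to 6.87 in the other 9.

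The ERI-R libraries differed among themselves, and the order depended on the scale. The TMM factors, which scale CPM and not TPM, were 1.18, 1.14 and 0.855 in ERI-R 1 to 3, and their part in this was not tested. In CPM, ERI-R 3 stood at 0.252 times the mean of ERI-R 1 and ERI-R 2 for Grhl1, 0.447 times for Grhl2 and 0.567 times for Grhl3. It stood at 1.69 times that mean for Ovol1, 1.82 times for Ovol2 and 2.34 times for Elf3. In TPM the same ratio was 0.115 for Grhl1, 0.247 for Grhl2 and 0.251 for Grhl3, but 0.731 for Ovol1, 0.789 for Ovol2 and 1.01 for Elf3. The grainyhead-like genes were thus below that mean in ERI-R 3 on both scales, with Grhl3 close to its ERI-R 1 level in CPM, while the OVOL genes were above it in CPM and below it in TPM. For Esrp2 and Klf5 the ratio was 1.38 and 2.02 in CPM and 0.439 and 0.867 in TPM. ERI-R 3 was also the ERI-R library without leukocyte transcripts, and the part of this in the difference was not tested. Ehf showed a further difference in the deposited files. The mean transcript length that the authors' RSEM run assigned to Ehf, weighted by the abundance of its transcripts, was 3994 and 4228 bases in ERI-R 1 and 2 and 1334 bases in ERI-R 3. For Klf5 it was 3343 to 3345 bases in all 3, and for Esrp1 3564 to 3667 bases. Ehf stood at 93.7, 149 and 158 TPM in ERI-R 1 to 3, while its CPM was highest in ERI-R 2. For Esrp2 the length was 2495, 2834 and 3525 bases in ERI-R 1 to 3, and for Grhl2 4155, 4481 and 3386 bases. Which transcripts lie behind these means was not analysed here.

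**Figure D4:**
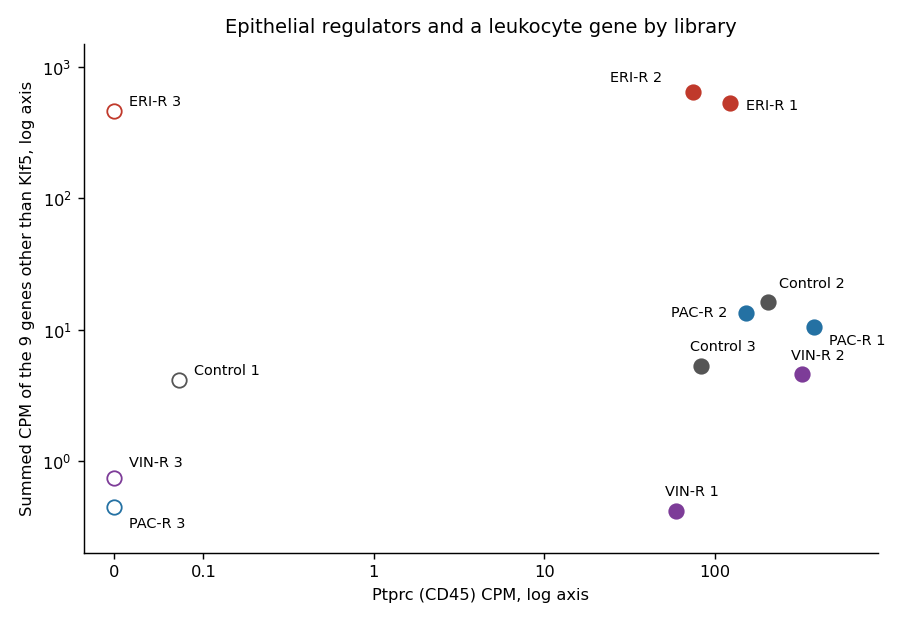
Summed CPM of the 9 genes other than Klf5 against Ptprc CPM, both on log axes with a Ptprc level of 0 drawn at the left end, 1 point per library, filled where leukocyte transcripts were present and open where they were not. The ERI-R libraries lie between 461 and 642 CPM on both sides of the plot, and the other 9 libraries between 0.418 and 16.2 CPM.

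The trace signal outside ERI-R was examined beside the leukocyte transcripts. The summed level of the 9 genes was 532, 642 and 461 CPM in ERI-R, 10.5, 13.3 and 0.448 CPM in PAC-R, 0.418, 4.57 and 0.738 CPM in VIN-R, and 4.12, 16.2 and 5.33 CPM in Control. The 3 libraries of other lines without leukocyte transcripts held 0.448 to 4.12 CPM and the 6 with them 0.418 to 16.2 CPM, so the pooled ranges overlapped. Within PAC-R and within Control the library without them was the lowest, while in VIN-R the lowest was VIN-R 1, which holds them. A relation between the 2 signals was not tested. Ehf had 0 counts in each of the 3 libraries without leukocyte transcripts and 1 to 99 counts in the 6 with them. Of the 81 values that these 9 genes have in the 9 libraries of other lines, 31 were 0. In ERI-R the sum was 461 CPM in the library without leukocyte transcripts and 532 and 642 CPM in those with them. In the 8 libraries with leukocyte transcripts, 10 of 10 genes were called in ERI-R over Control (22.7% of genes), over PAC-R (22.8%) and over VIN-R (24.0%), 9 higher and 1 lower each time. The log2 changes of the 9 were then 4.54 to 6.29 over Control. With a leukocyte score as a covariate, 10, 9 and 10 genes were called (32.4%, 29.7% and 30.6% of genes).

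Other genes of the programme were counted in lists chosen with earlier results of these data known. The lists share genes, so their counts are not separate observations. Trp63 is in both the epithelial targets and the other transcription factors below. The 8 epithelial markers above are also in the target list, and Zeb1 is both a mesenchymal marker and a mesenchymal factor. Of 43 genes listed as epithelial targets, 40 were tested, and in ERI-R over Control 30 were called higher, against 9.51% of all genes, and 2 lower, against 9.69%, with a median log2 change of 4.17, where the median over all genes tested was -0.00. Of the 30, Cdh3, Marveld3, Crb3 and Krt5 reached the filter level in ERI-R libraries only and had to differ. Without Control 3 the number called higher was 20, where 808 of all 14761 genes then tested were called higher. Macc1, known as a regulator of Met expression, had the lowest adjusted p of the list, at 63.9 ± 17.6 CPM in ERI-R, against 5.75 ± 0.925 CPM in Control (log2 change 3.47, adjusted p = 0.0009). The proteinase inhibitor gene Spint1 averaged 66.0 ± 37.6 CPM in ERI-R, against 3.73 ± 1.16 CPM in Control (log2 change 4.14, adjusted p = 0.0013 by edgeR). Pkp3, a desmosomal plaque gene, averaged 126 ± 102 CPM in ERI-R, against 6.88 ± 2.43 CPM in Control (4.19, adjusted p = 0.0015, and 3.43 without ERI-R 3). Dsc2, a desmosomal cadherin gene, was called lower at -5.46, or -7.30 without ERI-R 2. It reached the filter level in 0 ERI-R libraries and in 5 others, so it entered the test through the other lines and its call is a description. The keratin genes Krt7, Krt8, Krt18 and Krt19 were not called. Krt18 stood at -1.19, but was called at -2.26 in the 8 libraries with leukocyte transcripts and at -2.40 without ERI-R 3, and Krt19 stood at 2.33, called at 2.74 without ERI-R 1 and also called by DESeq2. With the leukocyte score as a covariate Krt7, Krt18 and Krt19 were called at 1.22, -1.68 and 1.92. Over PAC-R the list gave 31 higher (9.19% of all genes) and 1 lower (9.55%), and over VIN-R 32 higher (9.55%) and 1 lower (9.74%). Cdh3, Marveld3, Crb3 and Krt5 entered these tests through ERI-R as well. In PAC-R over Control 0 of the 40 were called, with 7 at an unadjusted p under 0.05 (1.72% of all genes) and a median of -0.58. In VIN-R over Control 0 were called, with 18 at that p (2.68% of all genes) and a median of -1.72. The medians over all genes tested were 0.05 and 0.04.

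Of 9 mesenchymal transcription factors, 6 were called lower, against 9.69% of all genes, and 0 higher, against 9.51%, in ERI-R over Control, with a median log2 change of -1.82. Twist2 averaged 0.496 ± 0.101 CPM in ERI-R, against 19.5 ± 6.64 CPM in Control (log2 change -5.26, adjusted p = 0.0004). It was below the filter level in every ERI-R library, so it entered the test through the other lines and its call is a description. Foxc2 averaged 1.60 ± 1.36 CPM in ERI-R, against 25.3 ± 3.65 CPM in Control (-3.96, adjusted p = 0.0012, and -4.86 without ERI-R 1). Zeb1, the repressor of Cdh1 that OVOL and grainyhead-like factors hold down in epithelia, averaged 4.30 ± 3.88 CPM in ERI-R, against 67.7 ± 3.72 CPM in Control (-3.96, adjusted p = 0.0057). Leaving out ERI-R 1 moved the Zeb1 change to -4.76, and leaving out ERI-R 3 moved it to -3.29. Tcf4 and Prrx1 were also lower, at -1.71 and -5.34, the second at -6.32 without ERI-R 1 and -4.63 without ERI-R 3. Twist1 was called at -1.05, but not when any 1 Control library (-1.05 to -1.01), ERI-R 2 (-1.06), ERI-R 3 (-0.69), PAC-R 1 (-1.07) or PAC-R 2 (-1.07) was left out, nor in the 8 libraries with leukocyte transcripts (-0.79), with total counts alone (-0.94), with no filter (-1.05) or with the ERI-R and Control libraries alone (-1.05). Snai1, Snai2 and Zeb2 had log2 changes of 0.43, -1.49 and -1.82 and were not called. In the 8 libraries with leukocyte transcripts Snai2 was called at -1.28, and with the leukocyte score as a covariate Snai2 was called at -1.64 and Zeb2 at -2.62. The same list gave 6 lower and 0 higher over PAC-R (9.55% and 9.19% of all genes) and over VIN-R (9.74% and 9.55%), and 3 lower over PAC-R when only those libraries were fitted (508 of all 13562 genes then tested).

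Among 18 tested of 21 other transcription factors, 6 were higher, against 9.51% of all genes, and 2 lower, against 9.69%, in ERI-R over Control. The median log2 change was -0.31. The list holds family members of the ETS, Krüppel-like and grainyhead-related factors beside factors of epithelial cells. Its counts and median therefore do not describe epithelial factors alone. The number lower, a share close to that of all genes, was 2 to 4 with 1 library left out and 2 to 7 over the other alternatives. Of the 6, Elf5 and Tfcp2l1 reached the filter level in ERI-R libraries only, so they had to differ and their values are a description. Elf5, an ETS factor of mammary alveolar cells, averaged 35.3 ± 18.8 CPM in ERI-R, against 0.141 ± 0.174 CPM in Control (log2 change 7.90, adjusted p = 0.0014, and 9.42 without Control 2). Tfcp2l1, of the wider grainyhead-related family, averaged 4.69 ± 0.888 CPM in ERI-R, against 0.166 ± 0.0900 CPM in Control (4.76, adjusted p = 0.0005). Trp63, Tfap2c and Foxa1 rose by 6.50, 6.28 and 3.57 on the log2 scale. Without Control 3 the number called higher was 3 (808 of all 14761 genes then tested), with Trp63 at 6.56 and Tfap2c at 6.19 among those no longer called. Without Control 2 Trp63 stood at 7.38 and Tfap2c at 7.24, and without ERI-R 1 Trp63 stood at 5.81 and Foxa1 at 2.58. Gata3, a luminal factor, went the other way at 10.7 ± 5.49 CPM in ERI-R, against 69.8 ± 6.32 CPM in Control (-2.70, adjusted p = 0.0015), as did Klf4, another Krüppel-like factor, at 28.4 ± 18.2 CPM in ERI-R, against 133 ± 14.0 CPM in Control (-2.22, adjusted p = 0.0063).

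Of 16 tested of 17 other splicing factors listed, 0 were higher, against 9.51% of all genes, and 2 lower, against 9.69%, in ERI-R over Control, with a median of -0.59. The number lower, a share close to that of all genes, was 0 to 2 with 1 library left out and 0 to 6 over the other alternatives. Those were Khdrbs3 (log2 change -1.37, adjusted p = 0.0097, lost without Control 1 at -1.11 and, at -1.37, with the ERI-R and Control libraries alone) and Rbfox2, known to act on many exons that ESRP proteins also control, at 80.0 ± 11.6 CPM in ERI-R, against 140 ± 16.5 CPM in Control (-0.81, adjusted p = 0.0338). The Rbfox2 call was lost when any 1 Control library (-0.92 to -0.69), ERI-R 2 (-0.78) or ERI-R 3 (-0.56) was left out, in the 8 libraries with leukocyte transcripts (-0.58), with the replicate number as a block (-0.81), with total counts alone (-0.72), with no filter (-0.82) and with the ERI-R and Control libraries alone (-0.81). Of 13 genes whose transcripts ESRP proteins are known to splice, 4 were higher (9.51% of all genes) and 3 lower (9.69%), with a median of -0.15. Of the 4, Fgfr2 and Fgfr3 reached the filter level in ERI-R libraries only and had to differ. Fgfr2 averaged 22.8 ± 13.04 CPM in ERI-R, against 0.140 ± 0.242 CPM in Control (7.27, adjusted p = 0.0047, and 11.10 without Control 2, when Control held 0 counts). Enah averaged 136 ± 4.93 CPM in ERI-R, against 36.5 ± 3.90 CPM in Control (1.90, adjusted p = 0.0005), and Fgfr3 and Exoc7 rose by 5.08 (5.78 without Control 1) and 1.97. Cd44 averaged 193 ± 101 CPM in ERI-R, against 991 ± 208 CPM in Control (-2.36, adjusted p = 0.0066), and Magi1 and Fgfr1 were lower at -1.38 and -1.39. These are gene totals, and the splice forms themselves were not analysed here.

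**Figure D5:**
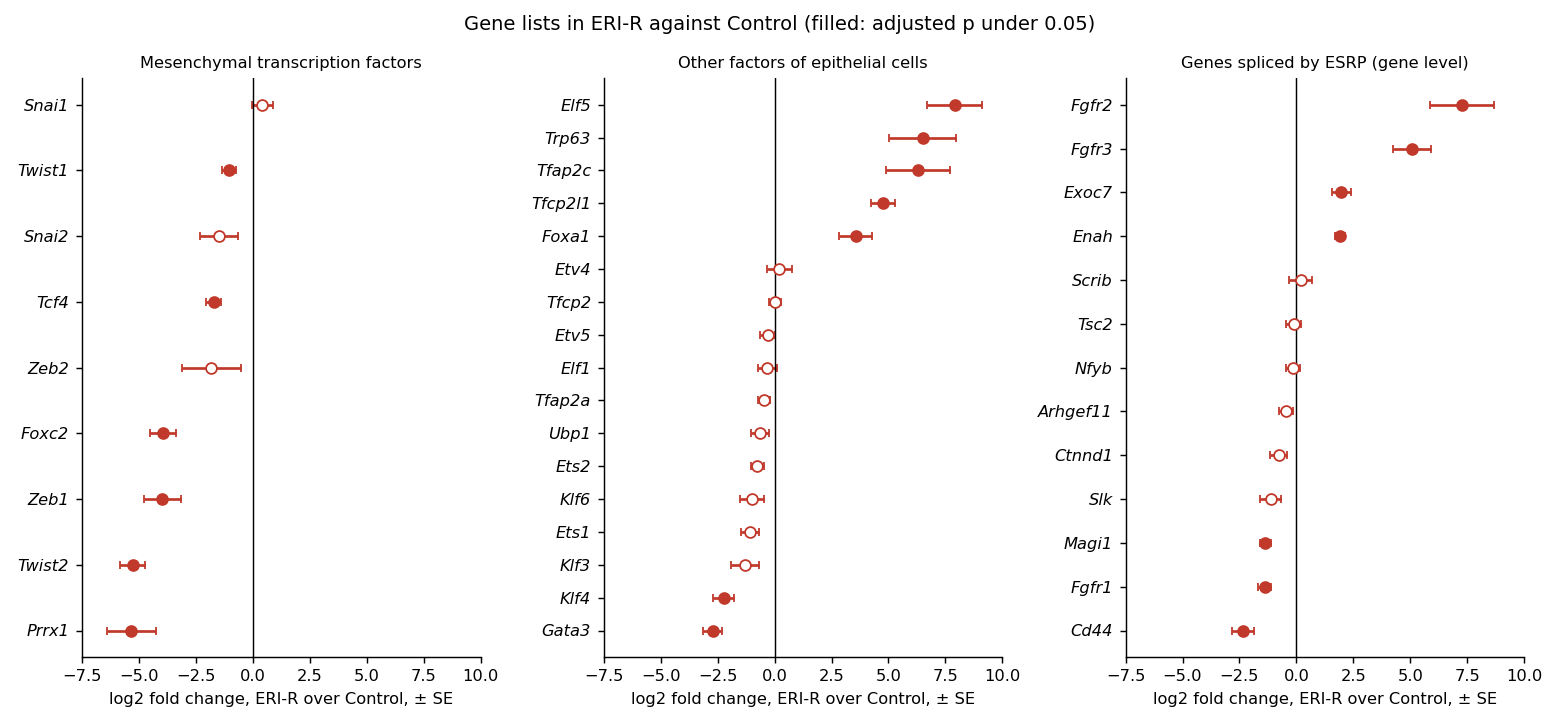
Log2 fold change in ERI-R over Control of tested genes in 3 of the lists, with bars of 1 SE from the edgeR fit. Points are filled where the adjusted p was under 0.05. Of the 18 other transcription factors, in the panel titled as factors of epithelial cells, 17 are drawn. The mesenchymal factors reach down to Prrx1 at -5.34, and the other transcription factors run from Gata3 at -2.70 to Elf5 at 7.90. The genes spliced by ESRP proteins run from Cd44 at -2.36 to Fgfr2 at 7.27.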

How the data were processed

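Polyadenylated RNA of 12 libraries (ERI-R, PAC-R, VIN-R and Control, 3 each) was analysed from gene tables. The authors deposited RSEM tables of genes, whose expected counts estimate read pairs and carry no normalization, per the file headers. TPM in the deposited tables are scaled by the authors for effective length and library size. The deposited mean transcript length only served to describe the 10 genes. The submitters' processing notes name GRCm38, RSEM 1.3.2, STAR 2.7.2b, cutadapt 2.4 and bcl2fastq 2.20.0.422 with no role or order. Annotation and strand setting: not given in the sources used here. Reads of near-identical stretches of paralogs, or of overlapping antisense genes, could therefore be shared.

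Expected counts were rounded, which changed 15.3% of values above 0. Genes were filtered with filterByExpr, which left 14226, scaled by TMM and tested in 1 edgeR 4.0.16 quasi-likelihood fit with group means for the 12 libraries (R 4.3.3). Calls were made at an adjusted p under 0.05, by the Benjamini-Hochberg method over every gene tested. The SE of a log2 change is its size divided by the square root of its F statistic. Levels are CPM with TMM-scaled library sizes, and TPM were used only to compare genes by length. The alternatives were DESeq2 1.42.0, other scalings and filters, the 8 libraries with leukocyte transcripts, a leukocyte covariate, a replicate block, the compared groups alone and leaving out each library. Their use on the lists was added after seeing the data. On simulated counts for ERI-R over Control (13935 genes), the fit recovered 102 of 107 genes changed by 2 and 93 of 93 changed by 4 on the log2 scale, with 10 false calls. The simulation used 1 fixed spread, smaller than that of these data (common coefficient of variation 0.59 in the edgeR fit), and no leukocyte difference among libraries. Its changed genes had mean levels over 2 CPM and were far fewer than those called in the data. The recovery therefore does not measure how many changes the fit finds in these data. Positions come from GENCODE M21 and promoter windows from RefSeq. The 10 genes and the lists were chosen with earlier results of these data known. The rule for naming list genes took up to 3 of those called with the lowest adjusted p, and the others named were chosen after their values were seen. Some genes of the lists are counted but not reported here by name. Sh2d3a of the target list was not matched to a symbol.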

Additional observations from a re-analysis of the deposited data

How the results depend on the processing

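Over 9 alternatives other than leaving out 1 library, 8 to 10 of the 10 genes were called in ERI-R over Control, 8 to 10 in ERI-R over PAC-R and 9 to 10 in ERI-R over VIN-R. In those fits 9.32% to 32.4%, 8.93% to 29.7% and 9.36% to 30.6% of all genes tested were called. Leaving out 1 library gave 5 to 10, 7 to 9 and 8 to 10, and 0 in each of the other 3 comparisons. Of all genes tested, 12.6% to 19.7%, 12.6% to 20% and 13.8% to 19.9% were then called, and at most 0.0411% in the other 3 comparisons. The value of 5 came without Control 3, where the call was lost for Grhl1, Esrp1, Elf3, Ehf and Klf5, and the cause was not tested. No gene reversed in the ERI-R comparisons. Some changes that were not called did reverse. In PAC-R over Control, Ovol1 was 0.0287 in the 8 libraries with leukocyte transcripts. With 1 library left out it lay between -3.82 and 0.13, Grhl1 between -0.59 and 1.95, Grhl2 between -0.14 and 1.06, Ehf between -0.59 and 2.68 and Esrp1 between -0.93 and 0.12. In VIN-R over Control, Grhl1 lay between -1.67 and 0.72 and Klf5 between -0.11 and 0.23. In PAC-R over VIN-R, Elf3 lay between -0.44 and 4.19 and Esrp2 between -0.28 and 0.73. The median of all genes in ERI-R over Control was -0.00, and 0.12 with DESeq2. Over the 4 groups together replicate numbers did not pair the libraries, since no more than 11 of 18 same-numbered pairs correlated over 0.1 (r from -0.863 to 0.917) and 5 of 12 libraries correlated best with their own number. All 3 pairs correlated over 0.1 between ERI-R and PAC-R (0.607 to 0.764) and between PAC-R and VIN-R (0.221 to 0.917), where library 3 of each line is the one without leukocyte transcripts. With the replicate block 9, 9 and 10 genes were called in ERI-R over Control, PAC-R and VIN-R (18.7%, 18.3% and 18.6% of all genes) and 0 in the other comparisons, and Klf5 over Control was -1.10 (adjusted p = 0.0510). At 3 counts, or 0.223 to 0.269 CPM per library, depth limits what can be said of the 9 genes outside ERI-R.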

Other observations

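Genes whose pattern over the 12 libraries lay close to those of the 10 were found by the mean absolute difference of log2 CPM after centring, as a description with no test. For Grhl2 these were Peg3 (0.27), Dsg2 (0.39) and Serpinb5 (0.45), and for Esrp1 Dsg2 (0.45) and Pcsk6 (0.45). Ovol2 lay closest to Dlx5 (0.23), Arhgef28 (0.27) and Kng2 (0.36), and Ovol1 to Prkcz (0.36), Nipal2 (0.45) and Ovol2 itself (0.46). Both OVOL genes reached the level of the filter in ERI-R libraries only. Genes with a similar level in ERI-R and few counts elsewhere therefore had to lie close to them. Ehf lay closest to Prlr (0.50), Ptprf (0.57) and Gabrp (0.61), and Klf5, whose pattern was far from the other 9, to Nmt2 (0.11), Cars (0.15) and Tpt1 (0.18). The nearest of the 10 to Klf5 was Elf3 at 2.4. This measure depends on the size of a change. As Klf5 changed less than the other 9, it had to lie far from them and near genes that changed little.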
